A study of Homo sapiens with 6 samples.

Results

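The unfolded protein response and the integrated stress response were followed through 35 genes in BT20 cells, an established human triple negative breast cancer line. The genes were chosen by name, with earlier results of these data known. They were taken as rows of the gene count table whose symbol equals a member, and all 35 had a row among 56478 gene symbols. They divide into 17 genes of the endoplasmic reticulum (ER), made up of chaperones, degradation factors and stress sensors, and 18 genes linked to the transcription factor ATF4. The comparison was of 3 libraries from cells carrying the control hairpin vector pLK0-shControl and 3 from cells carrying pLK0-shCK5-425222 (shCK5-22), directed against KRT5, the gene of cytokeratin 5. Both kinds of cell were kept in DMEM/F12 with 10% fetal bovine serum and no additional treatment is recorded, so the values are levels in ordinary culture. The arm with the knockdown rests on 1 hairpin, and the labels do not say whether the libraries came from separate cultures.

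When unfolded proteins build up in the ER, the sensors IRE1, PERK and ATF6 signal to the nucleus, and genes for chaperones, disulfide isomerases and degradation factors are induced. PERK also phosphorylates the initiation factor eIF2, which slows general translation while favouring translation of ATF4. Other eIF2 kinases feed the same arm on amino acid shortage, heme shortage or double-stranded RNA, and ATF4 then raises genes for amino acid synthesis, uptake and recovery. In breast cancer cells both programmes are known for coping with high secretory and nutrient demand. Control of ATF4 is largely translational, and XBP1 is activated by splicing, so neither step is read by a gene count.

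Libraries held 47622067 to 65429616 counts. KRT5 had CPM values of 231, 247 and 244 in shControl (replicates 1 to 3) and of 21.1, 22.7 and 24.1 in shCK5-22 (replicates 1 to 3), so every library matched its label. Replicate 1 of shCK5-22 stood apart from the other libraries of its group, with a chi-square per degree of freedom of 33.7 and 19.8 against them, where the other pair gave 5.08 and the shControl pairs 3.47 to 4.88. The 5 epithelial markers summed to 7828 to 8269 CPM in shControl and 7195 to 7725 CPM in shCK5-22 (CPM, read counts relative to library size, scaled by TMM), without overlap. Of these, KRT19 was 1.55-fold lower (edgeR, adjusted p = 5.45e-08) and CDH1 1.29-fold lower (adjusted p = 1.48e-09), while EPCAM, KRT8 and KRT18 did not pass. Markers of other cell types were low.

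The 6 leukocyte markers summed to 1.69 to 2.39 CPM in shControl and 2.82 to 3.38 CPM in shCK5-22, with CD68 at 0, and ITGAM carried the difference (2.42-fold higher, adjusted p = 4.88e-05). The 6 endothelial markers summed to 24.1 to 31.8 CPM in shControl and 19.7 to 32.0 CPM in shCK5-22, mostly CDH5, and PECAM1 was 2.30-fold lower (adjusted p = 0.0429), a call lost at an adjusted p of 0.121 without shCK5-22 replicate 2, 0.128 without shCK5-22 replicate 3 and 0.0978 without shControl replicate 3. PECAM1 did not pass with limma-voom either (adjusted p = 0.0726). The 7 fibroblast markers, with PDGFRA at 0, summed to 31.8 to 32.8 CPM in shControl and 28.3 to 29.4 CPM in shCK5-22, nearly all of it COL1A1, which fell from 32.0 ± 0.823 to 27.0 ± 0.511 CPM (mean ± SD, n = 3 each, edgeR adjusted p = 5.50e-04). Within that list PDGFRB and LUM went the other way. PDGFRB rose from 0 to 6 counts per shControl library to 46 to 80 per shCK5-22 library (adjusted p = 5.81e-07), and LUM from 4 to 10 counts to 16 to 26 (adjusted p = 0.00745). The part of these markers in the results was not tested.

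Knockdown of KRT5 came with small changes in both directions in the ER genes and in the ATF4-linked genes. Of the 17 ER genes, 2 were higher and 6 lower at an adjusted p under 0.05, and the main chaperones HSPA5 and HSP90B1 were not among them. Of the 17 ATF4-linked genes tested, 9 were higher and 4 lower, led upward by PPP1R15A, DDIT3, STC2 and SLC7A11 and downward by DDIT4 and SLC7A5. The DDIT3 rise rests on 57 to 135 counts per library, and its call was lost without shControl replicate 2 or 3. Over all genes tested, 34.2% were called, 17.4% higher and 16.8% lower. The shares called were 47.1% of the ER genes and 76.5% of the ATF4-linked genes. Most of these genes are well expressed, and among the 9056 genes with a mean of at least 10 CPM 48.6% were called, against 17 of 29 members at that level (58.6%). Of the ER genes all but DNAJB9 are at that level, and their share called, 47.1% with DNAJB9, was under the 48.6%. The ATF4-linked share, 76.5%, was above it, with DDIT3, CHAC1, NUPR1 and SLC7A11 under that level. As the members were chosen with earlier results known, these shares are descriptions, and the contrasts were not tested. These are bulk samples, in which fewer cells of a type and less RNA per cell cannot be told apart.

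The differences were modest in size. No called member reached a 2-fold difference, which 3.56% of all genes did, and the log2 fold changes of the 34 tested members ran from -0.53 (DDIT4) to 0.74 (PPP1R15A). The median was -0.10 for the ER genes, 0.099 for the ATF4-linked genes and -0.0057 for all genes tested. The 3 libraries of one group did not overlap those of the other for 11 of 17 ER genes and 15 of 17 ATF4-linked genes, where 45.1% of all genes had such separation. Without shCK5-22 replicate 1, which stood apart, the counts were 2 higher and 5 lower for the ER genes and 9 and 3 for the ATF4-linked genes, whose median was then 0.14. Without shControl replicate 3 the number of lower ER genes was 3 in place of 6.

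**Figure D1:**
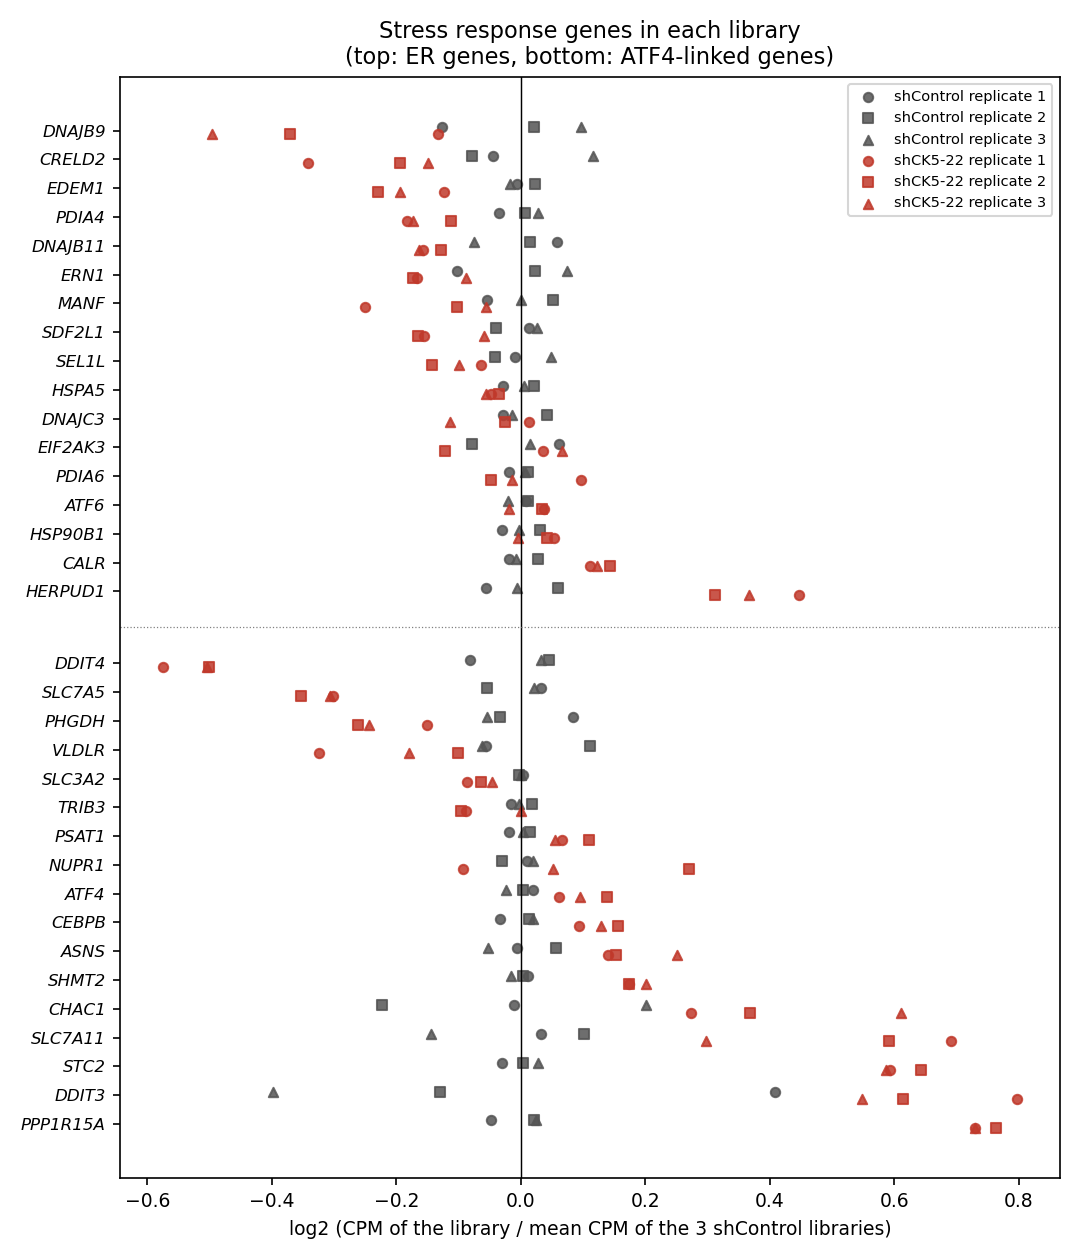
Each point is 1 library, placed on the x axis by the log2 ratio of its CPM to the mean CPM of the 3 shControl libraries, with the 34 tested genes on the y axis; grey marks shControl, red shCK5-22 and the marker shape the replicate. Red points of DNAJB9 and DDIT4 lie left of the grey ones and those of HERPUD1, STC2 and PPP1R15A right of them, while HSPA5 and ATF6 stay close to 0.

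The ER genes span a wide range of expression, which is compared here as CPM per kilobase of annotated exon. In shControl the calcium-binding chaperone gene CALR was highest at 287, followed by HSPA5 at 143, HSP90B1 at 111 and the disulfide isomerase genes PDIA4 at 92.8 and PDIA6 at 46.7. The lowest levels on this scale were those of the sensor genes ERN1 at 1.27 and EIF2AK3 at 2.38. Among the ATF4-linked genes the order ran from SLC7A5 at 131, ATF4 at 54.9, SLC3A2 at 36.5 and PPP1R15A at 36.4 down to DDIT3 at 0.911, SLC7A11 at 0.785 and NUPR1 at 0.386. In shCK5-22 PPP1R15A stood at 60.8 and ATF4 at 58.8 CPM per kilobase, so that PPP1R15A was below ATF4 in shControl and beside it in shCK5-22. Exon lengths are the union of all annotated exons, so genes with long rarely used exons appear lower than they are.

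**Figure D2:**
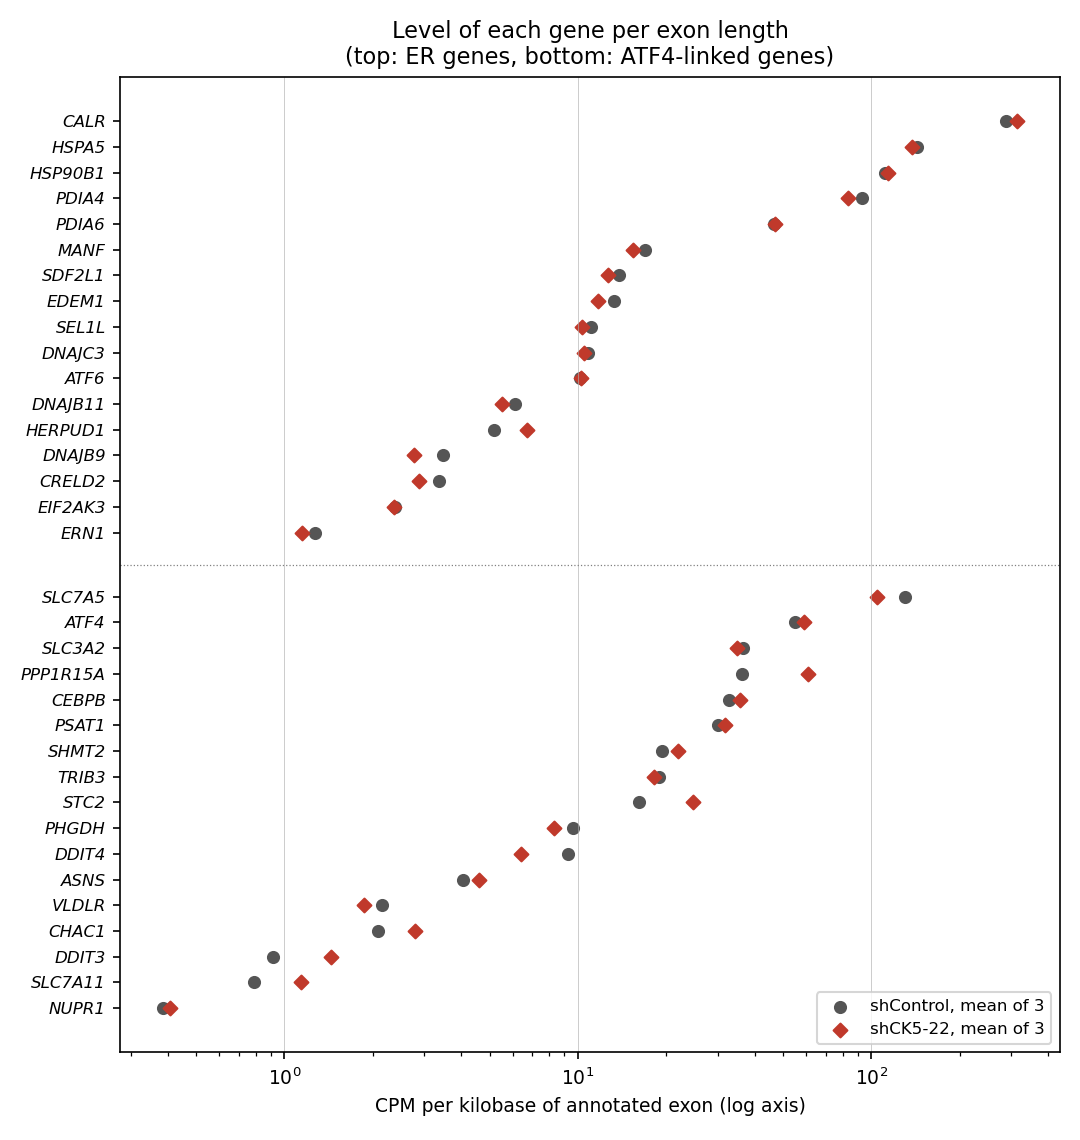
Mean level of each tested gene as CPM per kilobase of annotated exon on a log axis, for shControl (grey circles) and shCK5-22 (red diamonds), ordered by the shControl level within the ER genes (top) and the ATF4-linked genes (bottom). The levels run from 0.386 for NUPR1 to 287 for CALR in shControl, and the distance between the symbols is small beside that range.

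HSPA5 (BiP), the central ER chaperone that also holds the sensors inactive, did not pass the test. It is encoded at chromosome 9, 125234853 to 125241330, minus strand on GRCh38 and had CPM values of 546, 566 and 559 in shControl (replicates 1 to 3) and of 539, 544 and 536 in shCK5-22 (replicates 1 to 3). The shCK5-22 libraries lay just under the shControl libraries without overlap, and the difference was bounded closely (95% interval of the log2 fold change -0.10 to 0.01, adjusted p = 0.208). HSP90B1 (GRP94), the ER form of HSP90, had 511, 533 and 521 CPM in the shControl libraries and 541, 537 and 520.1 CPM in the shCK5-22 libraries (95% interval of the log2 fold change -0.03 to 0.09, adjusted p = 0.458). Those groups overlapped.

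CALR, which folds glycoproteins together with calnexin, was the 1 chaperone gene of this list that rose. CALR (chromosome 19, 12938578 to 12944489, plus strand) had 769.6, 795 and 775 CPM in the shControl libraries and 842, 861 and 849 CPM in the shCK5-22 libraries. Its groups did not overlap, and the level was 1.09-fold higher (log2 fold change 0.13, SE 0.0269, adjusted p = 8.82e-04).

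Of the chaperone genes, 4 fell. DNAJB9 (ERdj4), a co-chaperone of BiP (chromosome 7, 108569568 to 108574850, plus strand), had 8.99, 9.97 and 10.5 CPM in the shControl libraries and 8.95, 7.59 and 6.96 CPM in the shCK5-22 libraries, with shControl replicate 1 and shCK5-22 replicate 1 almost equal. It was 1.25-fold lower (log2 fold change -0.32, SE 0.0972, adjusted p = 0.0128), and the call was lost at an adjusted p of 0.0857 without shCK5-22 replicate 3 and 0.0853 without shControl replicate 3. Of its exon bases 6.45% overlap THAP5 on the opposite strand, which is listed at 0 in every library. On that strand 3.49% also overlap PNPLA8, which has a mean of 2079 counts, so the DNAJB9 count is uncertain. CRELD2, a disulfide isomerase of the ER (chromosome 22, 49918167 to 49927540, plus strand), had 16.8, 16.4 and 18.8 CPM in the shControl libraries and 13.7, 15.2 and 15.6 CPM in the shCK5-22 libraries and was 1.17-fold lower (log2 fold change -0.23, SE 0.0726, adjusted p = 0.0184), with an adjusted p of 0.0714 without shCK5-22 replicate 1 and 0.147 without shControl replicate 3.

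PDIA4, a protein disulfide isomerase (chromosome 7, 149003062 to 149028641, minus strand), had 297, 305 and 309.8 CPM in the shControl libraries and 268, 281 and 269.5 CPM in the shCK5-22 libraries. All 3 shCK5-22 libraries were below all 3 shControl libraries, and the level was 1.11-fold lower (log2 fold change -0.16, SE 0.0299, adjusted p = 3.03e-04). DNAJB11 (ERdj3), a co-chaperone that binds unfolded clients (chromosome 3, 186567403 to 186585800, plus strand), had 36.5, 35.4 and 33.3 CPM in the shControl libraries and 31.4, 32.1 and 31.3 CPM in the shCK5-22 libraries and was 1.11-fold lower (log2 fold change -0.15, SE 0.04995, adjusted p = 0.0255). The adjusted p of DNAJB11 was 0.0810 without shCK5-22 replicate 3, 0.108 without shControl replicate 1 and 0.0789 without shControl replicate 2. Other genes overlap 23.17% of its exon bases, so its count is uncertain too. Among them TBCCD1, on the opposite strand, covers 6.65% and has a mean of 589.5 counts.

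The other 4 chaperone and folding genes did not pass. MANF, a secreted ER stress factor, stood at 40.4 ± 1.501 CPM in shControl and 36.8 ± 2.56 CPM in shCK5-22 (mean ± SD, n = 3 each, as in all values given this way), with an adjusted p of 0.0516, and it passed under 8 of 15 alternatives, at a lowest adjusted p of 0.0209. SDF2L1, a partner of ER J-domain proteins, stood at 15.2 ± 0.367 CPM in shControl and 14.0 ± 0.567 CPM in shCK5-22, DNAJC3 (p58IPK), which restrains PERK, at 60.3 ± 1.55 CPM in shControl and 58.6 ± 2.60 CPM in shCK5-22 and PDIA6 at 191 ± 2.25 CPM in shControl and 193 ± 10.2 CPM in shCK5-22. Their adjusted p values were 0.161, 0.505 and 0.816. The log2 fold changes of the 11 chaperone and folding genes lay between -0.32 and 0.13, and 8 of the 11 were below 0.

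All 3 members of ER-associated degradation, which returns misfolded proteins to the cytosol, changed, in different directions. HERPUD1, which assembles the retrotranslocation complex (chromosome 16, 56932048 to 56944863, plus strand), had CPM values of 25.7, 27.9 and 26.6 in shControl (replicates 1 to 3) and of 36.4, 33.2 and 34.5 in shCK5-22 (replicates 1 to 3). The groups were widely apart, and HERPUD1 was 1.30-fold higher (log2 fold change 0.38, SE 0.0533, adjusted p = 1.02e-05), the largest difference among the ER genes. EDEM1, a lectin that hands over glycoproteins for degradation (chromosome 3, 5187646 to 5219957, plus strand), had 89.7, 91.5 and 88.9 CPM in the shControl libraries and 82.7, 76.8 and 78.7 CPM in the shCK5-22 libraries and was 1.13-fold lower (log2 fold change -0.18, SE 0.0366, adjusted p = 5.16e-04). SEL1L, the scaffold of the HRD1 ubiquitin ligase (chromosome 14, 81471549 to 81533861, minus strand), had 105, 103 and 109 CPM in the shControl libraries and 101, 95.8 and 98.8 CPM in the shCK5-22 libraries. It was 1.07-fold lower (log2 fold change -0.10, SE 0.0354, adjusted p = 0.0301), a call lost at an adjusted p of 0.121 without shCK5-22 replicate 2, 0.0807 without shCK5-22 replicate 3, 0.0522 without shControl replicate 1 and 0.185 without shControl replicate 3.

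None of the 3 sensor genes passed the test (edgeR), at unadjusted p of 0.0577 for ERN1, 0.969 for EIF2AK3 and 0.616 for ATF6, and 0 of the 3 passed with DESeq2 or limma-voom. ERN1, which encodes IRE1 (chromosome 17, 64039142 to 64130819, minus strand), had 12.8, 14.0 and 14.5 CPM in the shControl libraries and 12.3, 12.2 and 12.9 CPM in the shCK5-22 libraries (95% interval of the log2 fold change -0.30 to 0.01, adjusted p = 0.133). EIF2AK3, which encodes PERK (chromosome 2, 88556741 to 88627576, minus strand), had 13.5, 12.2 and 13.0 CPM in the shControl libraries and 13.2, 11.9 and 13.5 CPM in the shCK5-22 libraries (95% interval of the log2 fold change -0.16 to 0.15, adjusted p = 0.984). ATF6 (chromosome 1, 161766294 to 161964070, plus strand) had 80.6, 80.8 and 79.0 CPM in the shControl libraries and 82.3, 82.0 and 79.1 CPM in the shCK5-22 libraries (95% interval of the log2 fold change -0.06 to 0.09, adjusted p = 0.748). The groups overlapped for each of them, and the intervals bound the differences without showing that they are 0.

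Sequence elements known to bind ER stress factors were looked for in the RefSeq promoter windows (GRCh38.p14, 250 bases before to 50 after each start site), as a description of these windows. The ER stress element (ERSE), CCAAT followed 9 bases later by CCACG on either strand, is bound by ATF6 with NF-Y. It was present in 5 of 17 ER genes and 0 of 15 ATF4-linked genes with a window, and in 0.0769% of all 35116 windows. For each element here a gene counts with a match in any of its windows, whereas the share is over single windows. The element was known beforehand as one of ER stress genes, so matches in such genes are no finding of these data. The contrast with all windows was not tested. The matches are shown to let the element be compared between genes that rose (CALR), fell (CRELD2) and did not pass, written 5′ to 3′ along the strand of the match with the fixed letters in capitals.
HSPA5 (chr9:125241391-125241409, minus strand): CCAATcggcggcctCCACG
HSP90B1 upstream match (chr12:103930216-103930234, plus strand): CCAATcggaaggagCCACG
HSP90B1 downstream match (chr12:103930321-103930339, minus strand): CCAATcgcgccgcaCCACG
PDIA6 (chr2:10812853-10812871, minus strand): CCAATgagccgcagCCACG
CALR (chr19:12938384-12938402, minus strand): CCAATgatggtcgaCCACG
CRELD2 (chr22:49918554-49918572, minus strand): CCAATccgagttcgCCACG

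The related element ERSE-II, ATTGG followed 1 base later by CCACG, was found in HERPUD1 and SDF2L1 and in 0.0541% of all windows. It is printed with 9 flanking bases on each side.
HERPUD1 (chr16:56932016-56932044, plus strand): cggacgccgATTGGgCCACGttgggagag
SDF2L1 (chr22:21642105-21642133, minus strand): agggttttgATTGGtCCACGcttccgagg

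An XBP1 core element, TGACGTGG on either strand, was in none of the member windows and in 0.729% of all windows, which says only that these letters are not in this stretch. Of the 7 genes with an ERSE or ERSE-II match, HERPUD1 and CALR rose, CRELD2 fell, and HSPA5, HSP90B1, PDIA6 and SDF2L1 did not pass.

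**Figure D3:**
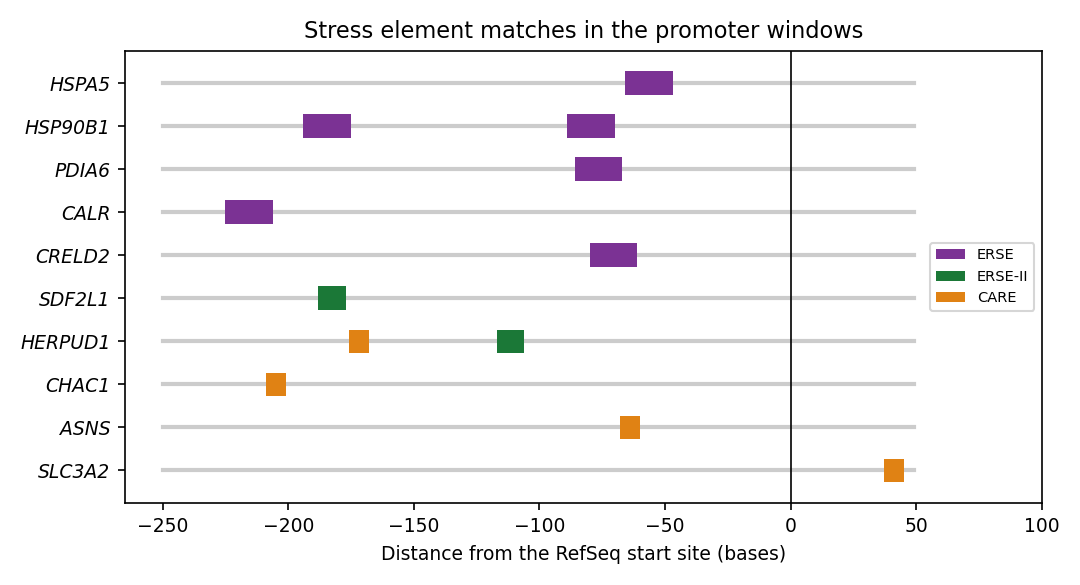
Grey lines are RefSeq promoter windows from 250 bases before to 50 after the start site (x axis, distance in bases), for the 10 members with a match, and coloured blocks are matches to ERSE, ERSE-II or the ATF4 element CARE. The ERSE matches of HSPA5, PDIA6 and CRELD2 and the downstream one of HSP90B1 end 48 to 71 bases before the start site, and CALR's lies farther out, ending 207 bases before it.

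Among the ATF4-linked transcription factors and regulators, 5 of 8 tested genes rose and 1 fell. ATF4 itself (chromosome 22, 39519695 to 39522685, plus strand) had CPM values of 140.0, 138 and 136 in shControl (replicates 1 to 3) and of 144, 152 and 147 in shCK5-22 (replicates 1 to 3). The groups did not overlap, and its mRNA was 1.07-fold higher (log2 fold change 0.10, SE 0.0317, adjusted p = 0.0190), a small rise whose call was lost at an adjusted p of 0.0890 without shCK5-22 replicate 2, 0.0555 without shCK5-22 replicate 3, 0.0527 without shControl replicate 2 and 0.104 without shControl replicate 3. Of the 50-base windows in its transcripts, 17.9% also occur in other genes, mostly its pseudogenes, so its count is uncertain to that extent.

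PPP1R15A (GADD34), which directs protein phosphatase 1 to eIF2 and so reverses the translational arm, showed the largest difference of all members. PPP1R15A (chromosome 19, 48872392 to 48876057, plus strand) had CPM values of 109, 114 and 114 in shControl (replicates 1 to 3) and of 187, 191 and 187 in shCK5-22 (replicates 1 to 3). The replicates of each group were tight and far apart, and the level was 1.67-fold higher (log2 fold change 0.74, SE 0.0316, adjusted p = 1.27e-13). Over 15 alternatives its log2 fold change stayed between 0.71 and 0.75.

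DDIT3 (CHOP), the proapoptotic transcription factor of prolonged ER stress (chromosome 12, 57516588 to 57521737, minus strand), was low throughout, at CPM values of 1.58, 1.09 and 0.904 in shControl (replicates 1 to 3) and of 2.07, 1.82 and 1.74 in shCK5-22 (replicates 1 to 3). It rose 1.60-fold (log2 fold change 0.68, SE 0.209, adjusted p = 0.0150) on 57 to 135 counts per library. The call was lost at an adjusted p of 0.0603 without shControl replicate 2 and 0.102 without shControl replicate 3, and the shControl libraries differed among themselves by more than in most members. Of its exon bases 27.16% overlap the far more abundant MARS on the opposite strand, and whether strand was used in counting is not given, so the DDIT3 values are uncertain. MARS had 115 CPM in shControl and 119 CPM in shCK5-22.

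CHAC1, which degrades glutathione and is among the genes induced through ATF4 (chromosome 15, 40952962 to 40956519, plus strand), had 4.24, 3.66 and 4.92 CPM in the shControl libraries and 5.17, 5.52 and 6.53 CPM in the shCK5-22 libraries. Every shCK5-22 library was above every shControl library, the closest pair being shControl replicate 3 and shCK5-22 replicate 1. It was 1.34-fold higher (log2 fold change 0.42, SE 0.127, adjusted p = 0.0134), with an adjusted p of 0.0962 without shCK5-22 replicate 3 and 0.0919 without shControl replicate 2. CEBPB, a bZIP partner of ATF4, rose from 63.9 ± 1.29 to 69.7 ± 1.55 CPM, 1.09-fold (adjusted p = 0.0129), a call lost at an adjusted p of 0.0518 without shCK5-22 replicate 2 and 0.0797 without shControl replicate 1.

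DDIT4 (REDD1), an inhibitor of mTORC1 that also answers to hypoxia and glucocorticoids, was the regulator that fell. DDIT4 (chromosome 10, 72273920 to 72276036, plus strand) had CPM values of 17.98, 19.6 and 19.5 in shControl (replicates 1 to 3) and of 12.8, 13.4 and 13.4 in shCK5-22 (replicates 1 to 3). The groups were well apart, and the level was 1.44-fold lower (log2 fold change -0.53, SE 0.0657, adjusted p = 1.81e-06). Its antisense gene DDIT4-AS1 covers 41.16% of its exon bases, so without knowledge of strand the DDIT4 count may hold reads of both.

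TRIB3, a pseudokinase that dampens ATF4 and CHOP activity, stood at 65.1 ± 0.792 CPM in shControl and 62.4 ± 2.32 CPM in shCK5-22 (adjusted p = 0.260), and the small stress protein gene NUPR1 at 2.19 ± 0.0389 CPM in shControl and 2.32 ± 0.298 CPM in shCK5-22 (adjusted p = 0.736). Neither passed, and their groups overlapped. ATF5, a relative of ATF4, was listed at 0 in every library and was not tested. Its exons overlap NUP62, a nucleoporin gene that is also listed at 0, on the opposite strand over 21.19% of their length. Since nucleoporins are used by every cell, these zeros were not read as absence of expression. A count of 3, the floor used here, is 0.0459 to 0.0630 CPM.

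The enzymes of serine, glycine and asparagine synthesis split. PHGDH, the first enzyme of serine synthesis (chromosome 1, 119648411 to 119744226, plus strand), had CPM values of 94.0, 86.7 and 85.5 in shControl (replicates 1 to 3) and of 79.9, 74.0 and 74.9 in shCK5-22 (replicates 1 to 3), and it was 1.16-fold lower without overlap (log2 fold change -0.22, SE 0.0418, adjusted p = 3.41e-04). PSAT1, the next enzyme of the same pathway, did not pass, at 65.8 ± 0.762 CPM in shControl and 69.4 ± 1.37 CPM in shCK5-22 (adjusted p = 0.120). SHMT2, which makes glycine from serine in mitochondria, rose from 93.8 ± 0.929 to 106 ± 1.14 CPM, 1.14-fold (adjusted p = 1.34e-04). ASNS, asparagine synthetase, rose from 18.1 ± 0.681 to 20.5 ± 0.865 CPM, 1.13-fold (adjusted p = 0.0265), a call lost at an adjusted p of 0.124 without shCK5-22 replicate 3, 0.0787 without shControl replicate 1 and 0.125 without shControl replicate 3. AC079781.5, a gene on the same strand that is listed at 0, shares 44.56% of the ASNS exon bases, so the ASNS count is uncertain.

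The amino acid transporters moved apart as well. SLC7A11 (xCT), which imports cystine for glutathione synthesis (chromosome 4, 138164097 to 138242349, minus strand), had CPM values of 7.74, 8.13 and 6.85 in shControl (replicates 1 to 3) and of 12.2, 11.4 and 9.31 in shCK5-22 (replicates 1 to 3). All shCK5-22 libraries were above all shControl libraries, replicate 3 least so, and the level was 1.45-fold higher (log2 fold change 0.54, SE 0.1003, adjusted p = 2.46e-04). SLC7A5 (LAT1), the leucine transporter (chromosome 16, 87830023 to 87869488, minus strand), had CPM values of 634, 597 and 629 in shControl (replicates 1 to 3) and of 503, 486 and 501 in shCK5-22 (replicates 1 to 3) and was 1.25-fold lower (log2 fold change -0.32, SE 0.0297, adjusted p = 2.69e-08). Partial copies of SLC7A5 exist, and 3.86% of its 50-base windows occur in SLC7A5P2 and as large a share in SMG1P3. SLC3A2, the heavy chain that both transporters need, stood at 189 ± 0.462 CPM in shControl and 181 ± 2.56 CPM in shCK5-22 without passing (adjusted p = 0.0858), although it passed with library size only (0.0428) and when genes had to reach 1 CPM in 3 libraries (0.0410).

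STC2, stanniocalcin 2, a secreted glycoprotein induced by ER stress and hypoxia (chromosome 5, 173314713 to 173329503, minus strand), had CPM values of 96.9, 99.3 and 101 in shControl (replicates 1 to 3) and of 149, 155 and 149 in shCK5-22 (replicates 1 to 3). The groups were far apart beside the spread of their replicates, and STC2 was 1.52-fold higher (log2 fold change 0.61, SE 0.0325, adjusted p = 4.85e-12). VLDLR, a lipoprotein receptor, fell from 20.05 ± 1.39 to 17.5 ± 1.35 CPM, 1.15-fold (adjusted p = 0.0300), a call lost at an adjusted p of 0.120 without shCK5-22 replicate 1, 0.0661 without shCK5-22 replicate 3 and 0.186 without shControl replicate 2.

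The C/EBP-ATF response element (CARE), TGATG, any 1 base and AA on either strand, is bound by ATF4 with C/EBP factors. It was found in 3 of 15 ATF4-linked genes with a promoter window (CHAC1, ASNS and SLC3A2), in 1 of 17 ER genes (HERPUD1) and in 3.62% of all windows. No match overlapped a match to another element. The matches of the 3 genes that rose are printed with 9 flanking bases on each side, along the strand of the match and with the fixed letters in capitals.
CHAC1 (chr15:40953253-40953278, minus strand): tggcaggagTGATGcAAcggcagggg
ASNS (chr7:97872460-97872485, minus strand): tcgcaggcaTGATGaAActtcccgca
HERPUD1 (chr16:56931957-56931982, minus strand): ggcacgggcTGATGcAAcccgccgcg
HERPUD1 was the 1 member that held both an ATF6-type and an ATF4-type element. The contrast of CARE matches with all windows was not tested. A link between the elements and the changes in level was not tested either. The match in SLC3A2, which did not pass the test, lies after the start site. The members NUPR1, SHMT2 and SLC7A11 have no window in the table used.

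**Figure D4:**
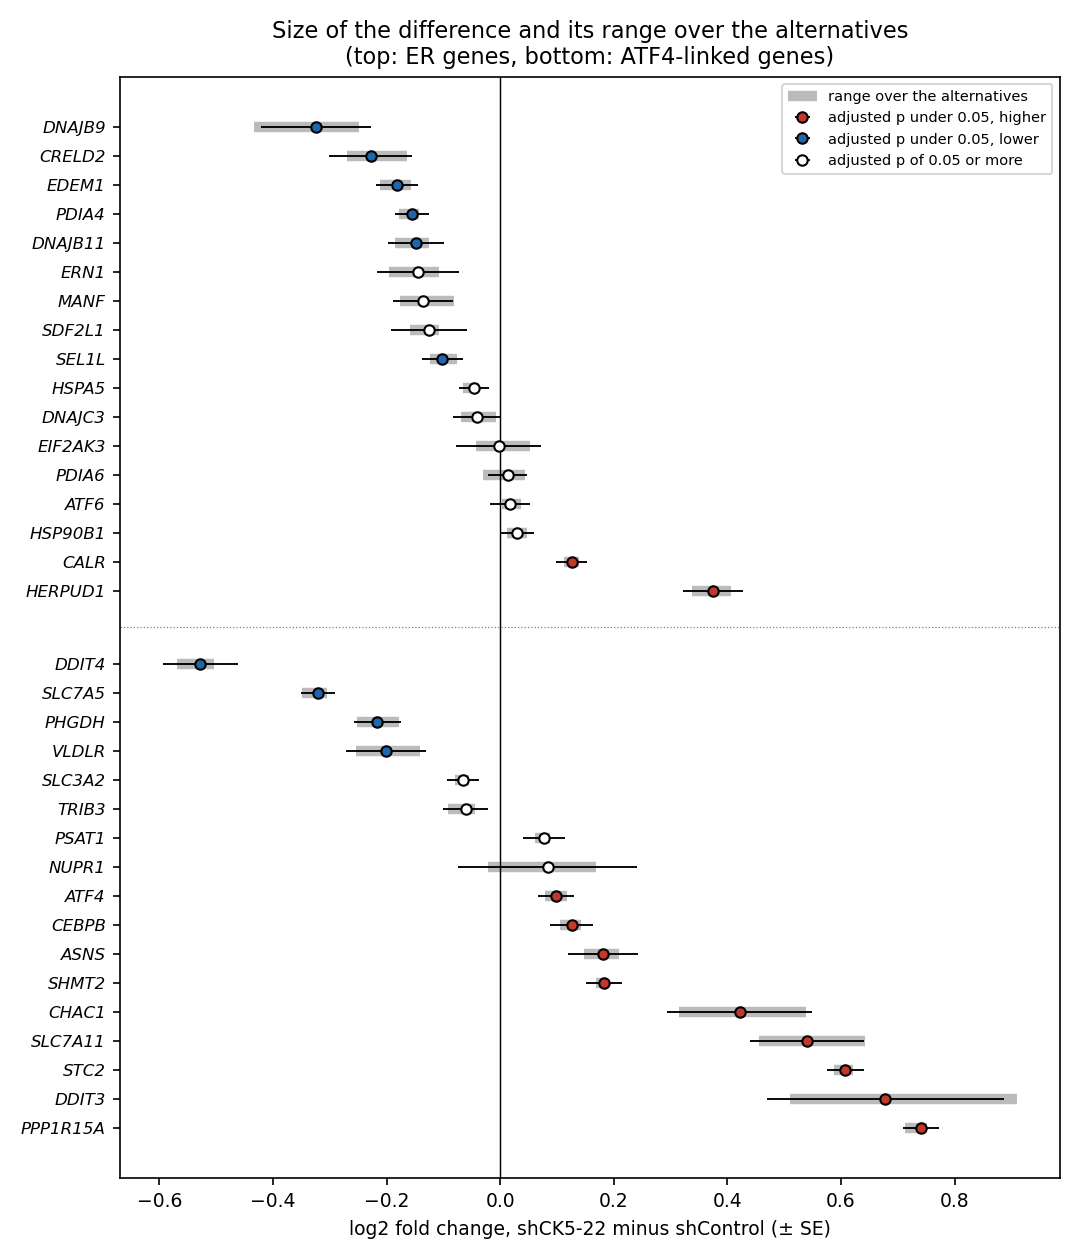
Log2 fold change of each tested gene, shCK5-22 minus shControl (x axis), with bars for ± SE; red points are genes called higher, blue points genes called lower and open points genes that did not pass, and grey bars give the range over the 15 alternatives. PPP1R15A at 0.74 and STC2 at 0.61 have narrow ranges, whereas DDIT3, CHAC1 and DNAJB9 have wide ones.

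The remaining genes of both pathways were read through 8 lists with 156 genes in the table. These lists too were chosen with earlier results of these data known, so their shares are descriptions. Of 144 tested, 47 were higher and 20 lower, beside 17.4% higher and 16.8% lower among all genes. The share called was 46.5%, where 34.2% of all genes and 48.6% of the 9056 with a mean of at least 10 CPM were called. Of those 9056 genes 2380 were higher and 2017 lower. Rises outnumbered falls by most among ATF4-linked stress genes and tRNA synthetases, and rises and falls were equal in number in the lists of ER folding and ER degradation.

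In the list of other ER folding and secretory genes 7 of 32 rose and 7 fell (median log2 fold change 0.035). The share called was 43.8%, beside 34.2% of all genes and 48.6% of those with a mean of at least 10 CPM. SEC31A, a coat subunit of vesicles leaving the ER, fell from 180.5 ± 6.12 to 102 ± 2.40 CPM (1.77-fold, adjusted p = 6.13e-14). KDELR3, a receptor that returns chaperones to the ER, fell from 18.1 ± 0.245 to 10.2 ± 0.779 CPM (1.77-fold, adjusted p = 1.04e-08). QSOX1, a sulfhydryl oxidase, fell from 655 ± 17.1 to 546 ± 14.5 CPM (adjusted p = 4.10e-07). Lower as well was UGGT1 (-0.21), which checks the folding of glycoproteins, while the rises included the translocon gene SEC63 (0.22), with log2 fold changes in parentheses.

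Among 16 other degradation genes 3 rose and 3 fell. The share called, 37.5%, was near the 34.2% of all genes. It was under the 48.6% of those with a mean of at least 10 CPM. SYVN1, the HRD1 ligase that works with SEL1L, fell from 64.5 ± 1.01 to 54.2 ± 1.80 CPM (adjusted p = 3.90e-05), and SELENOS, another part of that complex, from 21.3 ± 1.12 to 17.8 ± 0.714 CPM (adjusted p = 0.00272). UBE2J1, an ER ubiquitin-conjugating enzyme, rose from 79.4 ± 1.46 to 93.5 ± 2.87 CPM (adjusted p = 2.40e-05). The remaining calls were UBE2J2 (0.19), UFM1 (0.13) and EDEM2 (-0.16), with log2 fold changes in parentheses. The call of UFM1 was lost at an adjusted p of 0.189 without shCK5-22 replicate 2, 0.0621 without shCK5-22 replicate 3, 0.156 without shControl replicate 1 and 0.184 without shControl replicate 3, and that of EDEM2 at 0.0617 without shCK5-22 replicate 2 and 0.0873 without shControl replicate 1. UFM1 also lost its call with library size only (adjusted p = 0.0534). Thus SEL1L, SYVN1 and SELENOS of the HRD1 complex were lower, while HERPUD1 was higher, as was UBE2J1. These genes are set together after their values were seen, and the SEL1L call was lost with some single libraries left out. Of the 16 genes of this list 10 did not pass, and the complex as a whole was not tested.

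Of the other UPR signalling genes 3 of 11 rose and 1 fell. The share called, 36.4%, was near the 34.2% of all genes. It was under the 48.6% of those with a mean of at least 10 CPM. XBP1, the transcription factor downstream of IRE1, had 55.5, 53.4 and 50.7 CPM in the shControl libraries and 52.8, 53.0 and 52.4 CPM in the shCK5-22 libraries (95% interval of the log2 fold change -0.10 to 0.08, adjusted p = 0.860), with groups that overlapped. CREB3L2, an ER-tethered transcription factor, fell from 125 ± 2.72 to 88.2 ± 6.05 CPM (1.42-fold, adjusted p = 1.34e-08), whereas its relative CREB3L1 rose from 24.8 ± 0.614 to 31.5 ± 1.10 CPM (adjusted p = 2.76e-05). TMBIM6 (BI-1), an ER membrane protein that restrains IRE1, rose from 599 ± 13.8 to 696 ± 2.82 CPM (adjusted p = 2.04e-06). The third rise was in the IRE1 adaptor gene TRAF2, at a log2 fold change of 0.17.

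Of 13 tested genes for eIF2 kinases, eIF2 and its exchange factor eIF2B, 3 rose and 2 fell. The share called, 38.5%, was near the 34.2% of all genes. It was under the 48.6% of those with a mean of at least 10 CPM. EIF2AK2 (PKR), the interferon-inducible kinase that senses double-stranded RNA, had CPM values of 263, 271 and 263 in shControl (replicates 1 to 3) and of 175, 161 and 159.8 in shCK5-22 (replicates 1 to 3). It was 1.61-fold lower without overlap (log2 fold change -0.68, SE 0.0341, adjusted p = 1.50e-12). EIF2AK1 (HRI), the kinase sensitive to heme, stood at 235 ± 1.49 CPM in shControl and 246 ± 1.79 CPM in shCK5-22 (adjusted p = 0.0845), and EIF2AK4 (GCN2), the kinase sensitive to uncharged tRNA, at 92.6 ± 1.59 CPM in shControl and 94.8 ± 2.72 CPM in shCK5-22 (adjusted p = 0.498). EIF2S1, which encodes the eIF2 subunit that the kinases modify, rose from 167 ± 3.99 to 203 ± 8.19 CPM (adjusted p = 8.70e-07). DELE1, listed as KIAA0141, which relays mitochondrial stress to HRI, fell from 51.1 ± 1.82 to 43.2 ± 0.953 CPM (adjusted p = 1.95e-04). The other rises were in EIF2S3 (0.17) and EIF2B2 (0.17), with the log2 fold change in parentheses, and the EIF2B2 call was lost at an adjusted p of 0.0850 without shCK5-22 replicate 1, 0.0679 without shCK5-22 replicate 2, 0.0572 without shControl replicate 2 and 0.166 without shControl replicate 3. EIF2B2 also lost its call with library size only (adjusted p = 0.0549).

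Of 26 other ATF4-linked transcription factors and stress genes, 14 rose and 1 fell (median log2 fold change 0.23). The share called was 57.7%, beside 34.2% of all genes and 48.6% of those with a mean of at least 10 CPM. ATF3, a stress-induced bZIP factor, had CPM values of 26.6, 28.5 and 25.7 in shControl (replicates 1 to 3) and of 38.8, 39.6 and 38.5 in shCK5-22 (replicates 1 to 3). It was 1.45-fold higher without overlap (log2 fold change 0.53, SE 0.0511, adjusted p = 4.76e-08). SQSTM1 (p62), an autophagy receptor, rose from 234 ± 0.726 to 334 ± 9.11 CPM, 1.43-fold (adjusted p = 9.88e-12). GDF15, a stress cytokine that is also a p53 target, was 2.27-fold higher at 46 to 126 counts per library (adjusted p = 7.68e-05). Among the other rises were the proapoptotic BH3 genes BBC3 (0.40) and PMAIP1 (0.29), the growth arrest gene GADD45A (0.47) and the antioxidant gene HMOX1 (0.38), and the gene that fell was JDP2 (-0.34), a bZIP repressor, with log2 fold changes in parentheses. Several genes of this list are also known targets of p53 or NRF2.

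Cytosolic tRNA synthetases with the tRNA exporter XPOT rose in 13 of 20 cases and fell in 1 (median 0.14). The share called was 70%, beside 34.2% of all genes and 48.6% of those with a mean of at least 10 CPM. All 20 had at least 1754 counts in every library. TARS, the threonine enzyme, rose from 879 ± 19.96 to 1126 ± 41.7 CPM (1.28-fold, adjusted p = 6.93e-09), and CARS, the cysteine enzyme, from 49.8 ± 0.954 to 62.8 ± 1.85 CPM (adjusted p = 1.28e-06). The gene that fell was WARS, the tryptophan enzyme, which is interferon-inducible, from 44.8 ± 1.21 to 32.4 ± 3.33 CPM (1.39-fold, adjusted p = 7.56e-06).

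Of 14 other serine, one-carbon and proline genes, 2 rose and 3 fell. The share called, 35.7%, was near the 34.2% of all genes. It was under the 48.6% of those with a mean of at least 10 CPM. ASS1, argininosuccinate synthase, fell from 22.1 ± 2.73 to 15.8 ± 1.31 CPM (adjusted p = 1.87e-04), SHMT1, the cytosolic counterpart of SHMT2, fell from 76.8 ± 2.55 to 65.9 ± 0.171 CPM (adjusted p = 7.98e-05), and the proline enzyme gene PYCR1 rose from 38.0 ± 1.01 to 45.6 ± 0.186 CPM (adjusted p = 7.22e-05). The other calls of this list were GOT2 (0.08) and ALDH18A1 (-0.11), with log2 fold changes in parentheses. The GOT2 call was lost at 0.110 without shCK5-22 replicate 2, 0.0582 without shCK5-22 replicate 3, 0.139 without shControl replicate 1, 0.0796 without shControl replicate 2 and 0.0679 without shControl replicate 3, and the ALDH18A1 call at 0.109 without shCK5-22 replicate 3, 0.0519 without shControl replicate 1, 0.0585 without shControl replicate 2 and 0.0783 without shControl replicate 3 (adjusted p). GOT2 also lost its call with library size only (adjusted p = 0.0750) and with no filter (0.0599). Among other amino acid transporters 2 of 12 rose and 2 fell. The share called, 33.3%, was near the 34.2% of all genes. It was under the 48.6% of those with a mean of at least 10 CPM. The cationic transporter gene SLC7A1 rose from 372 ± 2.79 to 448 ± 1.87 CPM (adjusted p = 7.85e-08), and the glutamine transporter gene SLC1A5 fell from 112 ± 0.520 to 99.7 ± 2.21 CPM (adjusted p = 4.90e-04). SLC6A14, which imports neutral and basic amino acids, also fell but had a mean under 1 CPM (24 to 62 counts per library, log2 fold change -0.89), a call lost at an adjusted p of 0.0658 without shCK5-22 replicate 2 and 0.0508 without shCK5-22 replicate 3. SLC38A1, a glutamine transporter gene, rose by 0.083 on the log2 scale (adjusted p = 0.0334), a call lost at an adjusted p of 0.120 without shCK5-22 replicate 1 and of 0.0830 to 0.116 when any 1 shControl library was left out. With all libraries the SLC38A1 call was lost with library size only (adjusted p = 0.103) and with no filter (0.0534).

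**Figure D5:**
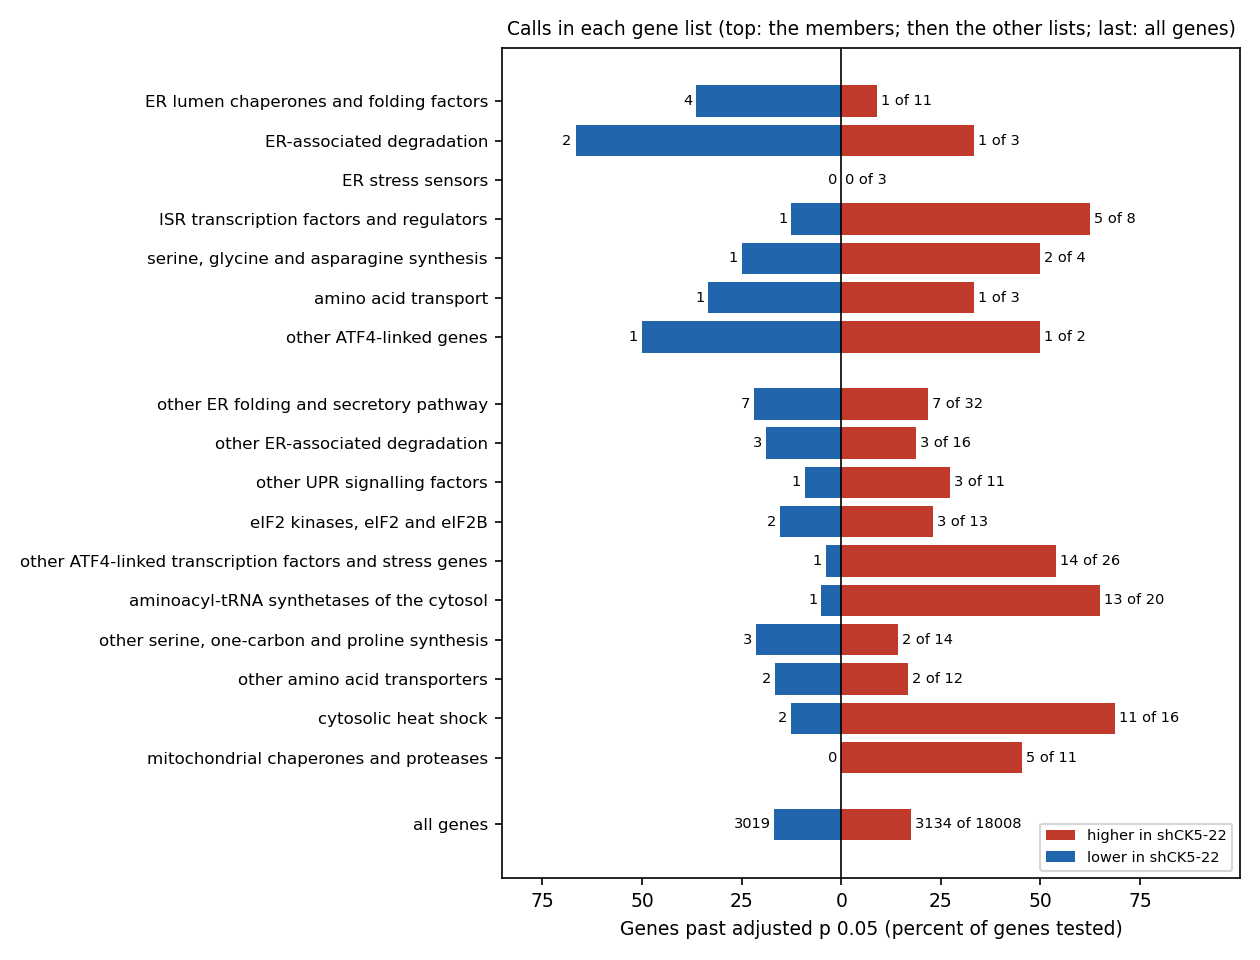
Bars give the percentage of tested genes in each list that were higher (right, red) or lower (left, blue) in shCK5-22 at an adjusted p under 0.05, with the counts beside them; the members' roles are at the top, the other lists below and all genes last. Rises clearly outnumber falls among other ATF4-linked stress genes (14 of 26 against 1), tRNA synthetases (13 of 20 against 1) and cytosolic heat shock genes (11 of 16 against 2). The ER lumen genes lean the other way (1 of 11 against 4), but of these falls only that of PDIA4 was called under every alternative.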

How the data were processed

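Total RNA was purified on columns, treated with DNase and made into Illumina libraries at a core facility, per the labels' protocols. The authors deposited raw whole-number counts per gene symbol and library. Cutadapt, STAR, SAMtools, Cufflinks and the build GRCh38 are named, per the submitters' processing notes. Versions, counting tool, annotation and use of strand were not given in the sources used here. Of 56505 rows, 27 held a date in place of a symbol (0.167% to 0.175% of counts) and were left out.

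Groups came from sample titles. The fit was edgeR 4.0.16 (R 4.3.3), with TMM scaling, filterByExpr (18008 genes left) and its robust quasi-likelihood test. P-values are two-sided, with Benjamini-Hochberg adjustment over those 18008 genes and a call at 0.05. SEs and intervals follow from the F statistic, and SDs are over 3 libraries. Since separate cultures are not stated, the spread behind the p-values is that of these libraries and may be technical. Intervals of single genes rest on the 6 libraries, and the floor of 3 counts covers counting error only. The code was tested on simulated data. Positions, exon lengths, overlaps and 50-base windows come from GENCODE release 29 on GRCh38, and promoter sequences from RefSeq, whose windows hold 32 of the 35 members, any of a gene's windows counting. Windows overlap annotated exons of some genes, so only matches with at most 9 flanking bases on each side are printed.

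Members and lists were chosen with earlier results of these data known. Named are the 8 called members with the largest change among the ER genes and among the ATF4-linked genes, the central regulators, and up to 3 called genes per other list at a mean of at least 1 CPM. Further genes named to fill out counts, and the printed matches, were chosen after their values were seen. Of 186 other genes listed, 185 were in the table, 20 under an older symbol, and 14 were not tested. Alternatives were RLE, upper quartile or no scaling beyond library size, no filter or at least 1 CPM in 3 libraries, a threshold of 0.01, DESeq2 1.42.0, limma-voom (limma 3.58.1), a replicate block and leaving out each library.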

Additional observations from a re-analysis of the deposited data

How the results depend on the processing

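Of 510 results for single members under 15 alternatives, 455 kept their direction and side of the threshold, 37 called results no longer passed, 10 now passed and 8 changed sign. Of the 21 called members, 11 were called under every alternative: PDIA4, CALR, HERPUD1, EDEM1, PPP1R15A, DDIT4, PHGDH, SHMT2, SLC7A11, SLC7A5 and STC2. At a threshold of 0.01, 4 ATF4-linked genes were higher in place of 9 and 2 ER genes lower in place of 6. Leaving out 1 library gave 3 to 6 lower ER genes, 6 to 9 higher ATF4-linked genes and a median of 0.079 to 0.14 for the ATF4-linked genes; these fits have fewer libraries, and any other cause was not tested. Sign changes were seen in genes near 0 that did not pass: EIF2AK3 was 0.0029 with upper quartile scaling and -0.043 to 0.053 on leaving out 1 library, PDIA6 was -4.13e-04 with library size only and -0.031 to 0.043 on leaving out 1 library, and leaving out 1 library gave -0.021 to 0.17 for NUPR1 and -0.047 to 0.012 for XBP1. With the replicate number as a block, 2 ER genes were higher and 7 lower, and 9 ATF4-linked genes higher and 4 lower; over all genes 3456 were higher and 3287 lower, in place of 3134 and 3019. The block does not follow from the design, since deviations of same-numbered libraries correlated at -0.0068 to 0.0517 and shCK5-22 replicate 1 correlated best with shControl replicate 3. Depth limits DDIT3 (57 to 135 counts) and NUPR1 (106 to 158 counts) most.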

Other observations

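Genes of other protein quality systems, outside both pathways, also moved. Their lists were likewise chosen with earlier results of these data known. Of 16 cytosolic heat shock genes 11 rose and 2 fell (median log2 fold change 0.13), where 17.4% of all genes were higher and 16.8% lower. All 16 had at least 1065 counts in every library. Of the 9056 genes with a mean of at least 10 CPM, 2380 were higher and 2017 lower. HSP90AA1, the inducible cytosolic HSP90, rose from 2185 ± 26.8 to 2830.0 ± 53.7 CPM (SD, n = 3 each), 1.30-fold (edgeR, adjusted p = 4.94e-10), while its ER counterpart HSP90B1 did not pass. HSPA4L, an HSP110 family member, rose from 21.6 ± 0.780 to 28.3 ± 1.59 CPM (adjusted p = 1.69e-05). HSPB1 (HSP27), a small heat shock protein gene, fell from 539 ± 9.34 to 373 ± 5.07 CPM, 1.44-fold (adjusted p = 3.22e-12). The other gene that fell was HSPB8 (-0.16), with its log2 fold change in parentheses, a call lost at an adjusted p of 0.120 without shCK5-22 replicate 2, 0.114 without shControl replicate 1 and 0.0509 without shControl replicate 2.

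Of 11 mitochondrial chaperone and protease genes tested, 5 rose and the other 6 did not pass. The share called was 45.5%, beside 34.2% of all genes and 48.6% of those with a mean of at least 10 CPM. GRPEL1, a nucleotide exchange factor of mitochondrial HSP70, rose from 58.6 ± 2.76 to 67.4 ± 0.244 CPM (adjusted p = 5.27e-04), HSPD1 (HSP60) from 696 ± 16.9 to 774 ± 26.3 CPM (adjusted p = 3.71e-04) and the protease subunit gene CLPP from 56.7 ± 0.601 to 62.4 ± 1.90 CPM (adjusted p = 0.00977). The other rises were in HSPA9 (0.09) and AFG3L2 (0.12), with log2 fold changes in parentheses. Their calls were lost at an adjusted p of 0.0560 without shCK5-22 replicate 2, 0.0566 without shCK5-22 replicate 3, 0.124 without shControl replicate 1 and 0.0529 without shControl replicate 3 for HSPA9, and of 0.118 without shCK5-22 replicate 2, 0.0741 without shCK5-22 replicate 3, 0.0561 without shControl replicate 1, 0.122 without shControl replicate 2 and 0.0562 without shControl replicate 3 for AFG3L2. AFG3L2 also lost its call with library size only (adjusted p = 0.0533). The CLPP call was lost without shControl replicate 3 (adjusted p = 0.0521).

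Besides ATF5, 10 of the other pathway genes were listed at 0 in every library, among them HSPE1, the partner of HSPD1, as well as TXNDC5, OS9, EIF2A and PPP1R15B. HSPE1 and EIF2A serve every cell, so a 0 in this table was not read as absence of expression.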
